A study of Rattus norvegicus with 4 samples.

Results

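TAM receptors are 3 receptor tyrosine kinases, Tyro3, Axl and Mertk, and their bridging ligands are Gas6 and Pros1 (protein S). These 5 genes, of 25399 in the count tables, are described here across the cell types of the rat orbitofrontal cortex. They were taken by symbol, 1 identifier each, and Mertk was chosen by its higher level after methamphetamine (METH) in oligodendrocyte precursor cells (OPC). Values of that contrast are therefore given as a description, with no test.

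The ligands hold phosphatidylserine, a lipid that dying cells and some synapses expose on their surface, at one end and a TAM receptor at the other, so that the receptor can start engulfment. Gas6 binds all of the receptors, whereas Pros1, also an anticoagulant of the blood, acts on Tyro3 and Mertk. Mertk and Axl are known in the brain for the clearance of cell debris by microglia and astrocytes, and Tyro3 as the receptor of the family found in neurons.

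Nuclei came from the orbitofrontal cortex of wild-type male rats of the Sprague-Dawley strain, 8 weeks old. One group had received METH at 1 mg/kg and the other saline, by intraperitoneal injection over 7 days; the series is titled as a model of METH-induced sensitization. Each group gave 2 libraries from 4 animals. How animals were divided over the libraries is not stated in the labels, so the p-values rest on the spread from library to library, which may be technical. No allele or transgene is named in the labels of either group.

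The 4 libraries held 8467 to 18958 barcodes and 37758602 to 44034787 unique molecular identifiers (UMIs, which count captured RNA molecules), and 7637 to 14973 nuclei passed the filters. Saline replicate 1 stood apart, with the most nuclei, the lowest median depth (1956 UMIs per nucleus, against 2807 to 3534 in the other libraries), only 153 microglia-like nuclei, and 2125 of the 2653 nuclei that could not be named. Between 23 and 69 barcodes were shared by any pair of libraries, at most 0.672% of the smaller one. Clusters were named from marker genes into 11 classes, and 9 classes with at least 50 nuclei in every library were compared between groups. The class names were rebuilt from markers and may differ from the authors' own. OPC-like nuclei (2908 in all) carried the precursor genes that define them: Pdgfra, the PDGF receptor of these cells, stood at 1019 and 1041 CPM in METH replicates 1 and 2 and at 925 and 967 CPM in saline replicates 1 and 2. CPM are the UMIs of a gene per 1000000 UMIs summed over a class in a library; they are not per length, so levels are compared between classes for the same gene and not between genes.

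Promoter windows of all 5 genes were found in the RefSeq table (build GRCr8), each of 300 bases from 250 before to 50 after the annotated start. GGGCGG, the letters of a GC box, or CCGCCC on the other strand, was present in all 5 windows, against 33.1% of the 33469 promoters in the table. The letters of a TATA box (TATAAA) stood in 14.2% of all promoters, and the motif CCAAT in 37.5%; on both strands searched, neither was in any of the 5 windows. The GC content was 63% in Axl, 65.3% in Gas6, 67.3% in Mertk, 69% in Pros1 and 81.3% in Tyro3, above the median of 51.7% over all promoters. The windows of Mertk and Tyro3 are shown because their levels ran in opposite directions along the oligodendrocyte lineage, Mertk lowest and Tyro3 highest in oligodendrocyte-like nuclei (values below). Capitals mark GGGCGG or CCGCCC, which occurred 2 times in Mertk and 6 times in Tyro3, with 1 overlapping pair in the latter. Both genes lie on the plus strand of chromosome 3, at chr3:136392324-136392623 and chr3:127231653-127231952. A match is a run of letters and not a shown binding site.
Mertk: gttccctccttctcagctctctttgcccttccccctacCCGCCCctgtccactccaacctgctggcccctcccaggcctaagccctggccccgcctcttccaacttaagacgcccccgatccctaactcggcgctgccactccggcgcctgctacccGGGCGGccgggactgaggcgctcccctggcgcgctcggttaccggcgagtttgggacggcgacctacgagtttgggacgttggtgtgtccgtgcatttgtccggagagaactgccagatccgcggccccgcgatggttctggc
Tyro3: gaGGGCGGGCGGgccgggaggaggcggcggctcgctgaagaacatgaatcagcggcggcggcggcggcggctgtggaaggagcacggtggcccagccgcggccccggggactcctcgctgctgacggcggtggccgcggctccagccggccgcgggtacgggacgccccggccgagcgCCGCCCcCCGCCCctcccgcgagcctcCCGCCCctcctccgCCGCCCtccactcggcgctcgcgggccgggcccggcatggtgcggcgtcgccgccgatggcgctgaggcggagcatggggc

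Mertk, the receptor best known for the uptake of apoptotic cells, was mainly a gene of microglia-like and astrocyte-like nuclei. Of its 12303 UMIs, 47.6% lay in astrocyte-like, 26.3% in microglia-like, 12.4% in unnamed and 6.32% in OPC-like nuclei. Its level was highest in microglia-like nuclei (1779 ± 206 CPM, mean ± SD over the 4 libraries of both groups, as for the next levels), whose libraries all lay above those of every other class. It was 925 ± 243 CPM in astrocyte-like and 633 ± 188 CPM in perivascular macrophage-like nuclei, which overlapped.

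A step lower came endothelial-like (173 ± 5.89 CPM), OPC-like (161 ± 60.4 CPM) and leptomeningeal fibroblast-like nuclei (137 ± 36.1 CPM), which did not differ beyond their spread. Leptomeningeal fibroblast-like nuclei held 3475 to 4601 CPM of summed astrocyte markers, against 1492 to 2167 CPM of their own markers. Endothelial-like nuclei held 588 to 851 CPM of astrocyte markers, against 2104 to 6515 CPM of their own. The part of RNA from other cells in these levels was not tested. Newly formed oligodendrocyte-like nuclei held 48.2 ± 29.6 CPM and mural-like nuclei 37 ± 20.5 CPM. The level was 8.41 ± 1.23 CPM in inhibitory neuron-like, 4.71 ± 3.24 CPM in oligodendrocyte-like and 4.32 ± 1.87 CPM in excitatory neuron-like nuclei. Along the oligodendrocyte lineage the mean of Mertk was lower in each later class, from OPC-like over newly formed to mature nuclei, with no overlap of libraries between the first and the last. In oligodendrocyte-like nuclei saline replicate 2 held no Mertk UMI, which allows up to 2.92 CPM (3 counts).

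**Figure D1:**
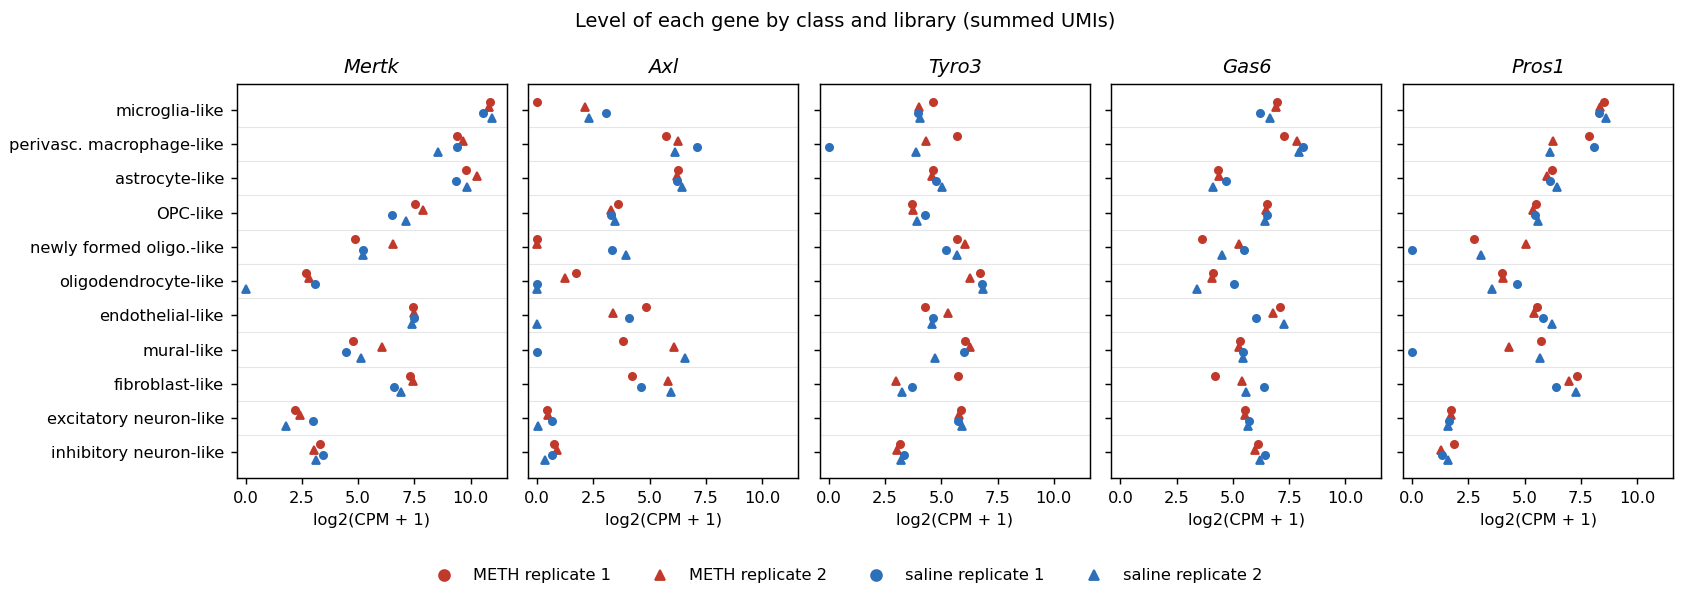
Level of each gene, as log2(CPM + 1) of UMIs summed per class and library, with 1 point per library (red METH, blue saline; circles replicate 1, triangles replicate 2). Mertk is highest in microglia-like nuclei at 1491 to 1977 CPM, Tyro3 in oligodendrocyte-like nuclei, and the points of METH and saline mostly mix.

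**Figure D2:**
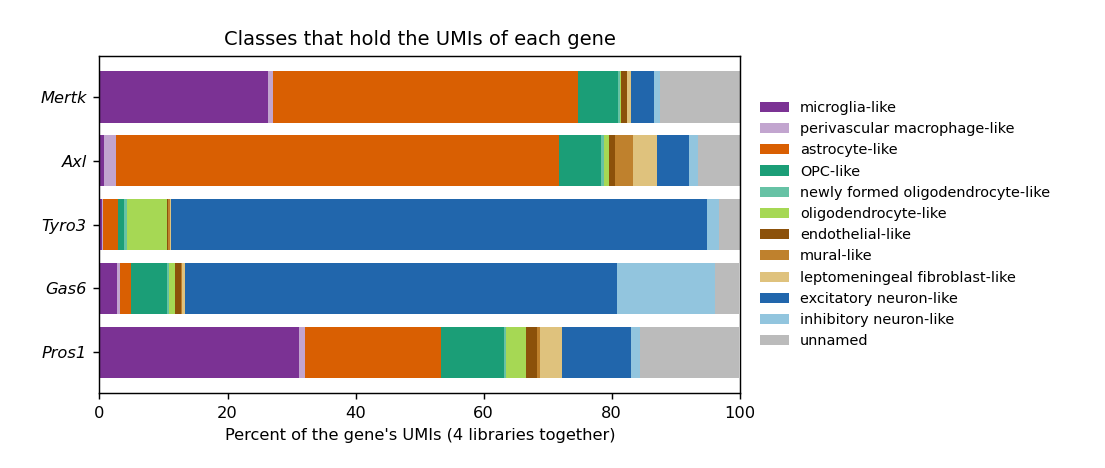
Share of each gene's UMIs by class, in percent, over the 4 libraries together. Astrocyte-like and microglia-like nuclei hold most UMIs of Mertk, astrocyte-like nuclei 69.2% of those of Axl, and excitatory neuron-like nuclei 83.8% of those of Tyro3 and 67.6% of those of Gas6.

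In OPC-like nuclei, the contrast by which Mertk was selected, the level was 181 and 232 CPM in METH replicates 1 and 2 and 90.4 and 139.7 CPM in saline replicates 1 and 2. The METH libraries were both higher than either saline library. The counts behind these levels were 227, 322, 63 and 166 UMIs. The METH mean was 207 ± 36.4 CPM and the saline mean 115 ± 34.9 CPM (SD, n = 2 libraries each), a ratio of 1.8. The fitted log2 fold change was 0.80 (SE 0.154). That SE is taken from the F statistic of the fit. The pooled SD of log2 CPM within groups, from these libraries alone, was 0.361. Without saline replicate 1, the library that stands apart, the log2 fold change was 0.57, and without saline replicate 2 it was 1.20. The size thus rested on which saline library was used. Since both METH libraries exceeded both saline libraries, leaving 1 out was bound to keep the sign, which is no support.

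The share of OPC-like nuclei with at least 1 Mertk UMI was 21.9% in METH replicate 1 (19 to 24.9%, 95% Clopper-Pearson) and 28.9% in METH replicate 2 (25.7 to 32.3%). It was 8.05% in saline replicate 1 (6.12 to 10.4%) and 20.3% in saline replicate 2 (17.3 to 23.6%); the intervals cover counting error only. The METH shares were again the higher, but METH replicate 1 and saline replicate 2 differed by less than their intervals. OPC-like nuclei had median depths of 1429.5 and 1681 UMIs in the METH libraries and 939 and 1685.5 UMIs in the saline libraries, so saline replicate 1 was the shallowest here too.

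After each nucleus was thinned to 1000 UMIs, the shares were 15.2% and 19.5% in the METH libraries and 10.4% and 13.9% in the saline libraries. The order of the libraries stayed, and the difference between the group means went from 11.2 to 5.2 percentage points. In saline replicate 1, 384 of 683 OPC-like nuclei were too shallow for this and were left out, against 49 to 112 in the other libraries. Among oligodendrocyte-like nuclei of similar depth (medians of 883 to 1293 UMIs), between 0 and 0.777% held a Mertk UMI, and between 0 and 1.47% after thinning. Excitatory neuron-like nuclei, with medians of 2780 to 6568 UMIs, held one in 1.73 to 2.81% of nuclei. The shares in OPC-like nuclei lay above both of these in all 4 libraries. The level of free RNA was not measured.

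**Figure D3:**
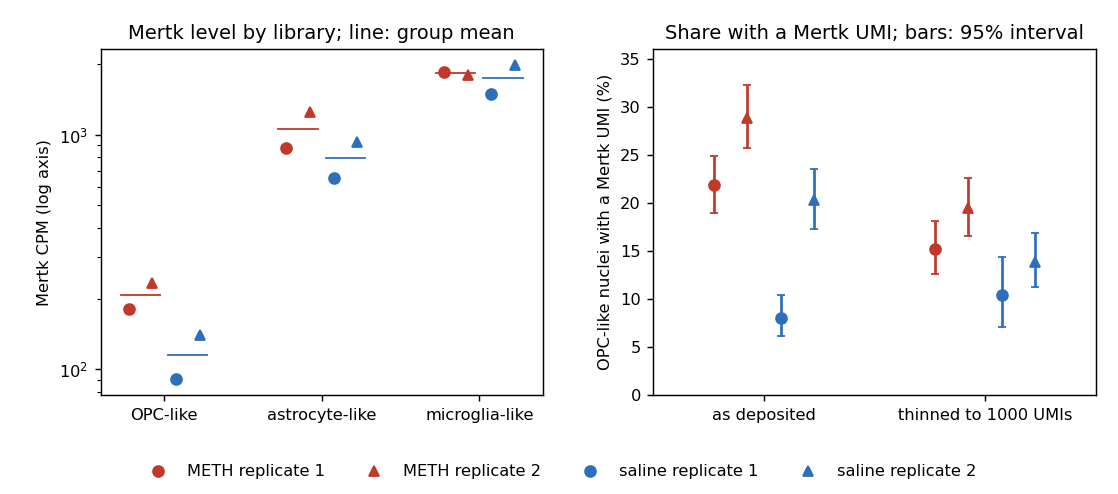
Left, Mertk CPM per library in 3 classes on a log axis, with lines at group means; right, percent of OPC-like nuclei with a Mertk UMI, as deposited and thinned to 1000 UMIs, with 95% Clopper-Pearson intervals. In OPC-like nuclei both METH libraries (181 and 232 CPM) sit above both saline libraries (90.4 and 139.7 CPM), while the groups overlap in astrocyte-like and microglia-like nuclei.

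Most OPC-like nuclei with Mertk held a single UMI of it. The number with 1 UMI was 132 and 148 in METH replicates 1 and 2 and 47 and 110 in saline replicates 1 and 2, and the number with 3 or more was 8, 25, 0 and 2 in the same order. The main OPC-like cluster held 2828 of these nuclei and gave 183 and 238 CPM in the METH libraries against 91.9 and 139 CPM in the saline libraries. The other, of 80 nuclei, was led by Top2a, Cenpf and other genes of dividing cells; its 2 to 7 Mertk UMIs per library were too few to compare the groups.

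Markers of astrocytes and microglia, the classes richest in Mertk, were also measured within OPC-like nuclei. The summed level of the 10 astrocyte markers was 943 and 1073 CPM in METH replicates 1 and 2 and 863 and 874 CPM in saline replicates 1 and 2; 7 of 10 had a higher METH mean, and Aldh1l1 was at 0. Within astrocyte-like nuclei the same sum was 7173 to 8074 CPM. That of the 10 microglia markers was 196 CPM in both METH libraries and 158 and 123 CPM in the saline libraries, with 9 of 10 higher in METH and none at 0. The 5 markers of perivascular macrophages summed to at most 3.19 CPM, with F13a1, Cd163 and Ms4a7 at 0.

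Because these sums moved with Mertk, it was also measured in OPC-like nuclei with no UMI of the defining markers of the other glial classes. These were 76.5% and 72.3% of the OPC-like nuclei in the METH libraries and 85.9% and 84.6% in the saline libraries. Their Mertk level was 193 and 216 CPM in METH against 83.3 and 129.8 CPM in saline, a log2 fold change of 0.88, beside 0.80 in all OPC-like nuclei. The part of free RNA or of mixed droplets in the difference was not tested. OPC-like nuclei with a Mertk UMI were deeper than those without in every library, for example with medians of 1683 against 1366 UMIs in METH replicate 1. Their summed astrocyte markers were 891 and 1142 CPM in METH against 915 and 951 CPM in saline, and those of the nuclei without were 961, 1038, 858 and 853 CPM.

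The other 4 genes differed less in the same nuclei, again given without a test. Gas6 was 89.3 and 86.6 CPM in the METH libraries and 90.4 and 85 CPM in the saline libraries, a log2 fold change of 0.02 (SE 0.167). Pros1 was 43.8 and 40.4 CPM in METH against 43 and 48 CPM in saline, with a log2 fold change of -0.13 (SE 0.23). The groups overlapped for both ligands. Axl rested on 6 to 14 UMIs per library, with a log2 fold change of 0.05 (SE 0.492). Tyro3 rested on 13 to 17 UMIs per library and gave 12 and 12.3 CPM in METH against 18.6 and 14.3 CPM in saline, both METH values being the lower (-0.39, SE 0.405).

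Outside OPC-like nuclei, 22 pairs of a gene and a class passed the filter on low counts, of 40 possible pairs, and each was tested between METH and saline. None passed an adjusted p of 0.05 by the edgeR quasi-likelihood test with Benjamini-Hochberg adjustment over all genes of the class. One had an unadjusted p under 0.05, Gas6 in inhibitory neuron-like nuclei, and DESeq2 called none and had none under an unadjusted 0.05. Few genes of any kind were called. The share was 0.0099% of 10096 genes in astrocyte-like, 0.00665% of 15029 in excitatory neuron-like and 0.0169% of 11805 in inhibitory neuron-like nuclei. It was 0.088% of 3410 in newly formed oligodendrocyte-like and 0.0224% of 8933 in oligodendrocyte-like nuclei, and 0% in endothelial-like, leptomeningeal fibroblast-like and microglia-like nuclei. In OPC-like nuclei, whose contrast chose Mertk, the share was 0.0102% of 9806 genes. Libraries of the 2 groups often fell apart without a call: over the 9 classes, both METH values exceeded both saline values in 11.7 to 18.5% of the genes tested (16.1% in OPC-like nuclei) and were under both in 10.5 to 20.3%.

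**Figure D4:**
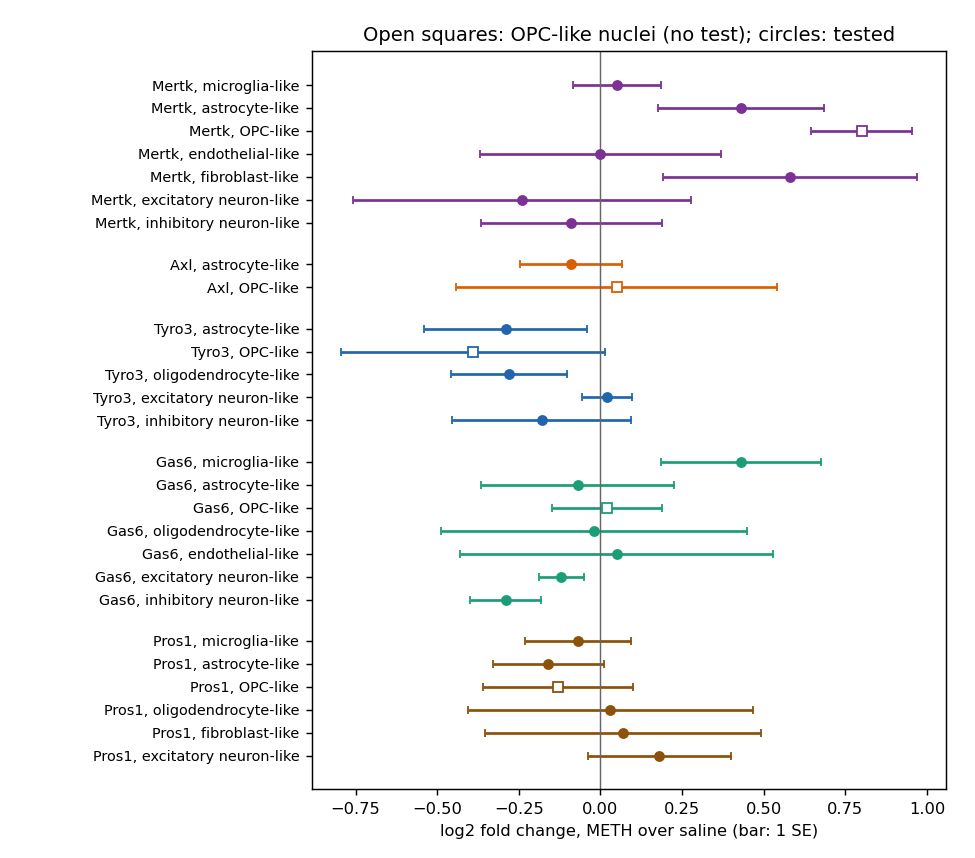
Log2 fold change of METH over saline for the 27 pairs of a gene and a class that passed the filter on low counts, with bars of 1 SE; open squares are OPC-like nuclei, which have no test. Mertk in OPC-like nuclei (0.80) has the highest value of the 27, and it is the value by which Mertk was chosen.

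In astrocyte-like nuclei Mertk was 874 and 1244 CPM in METH replicates 1 and 2 and 656 and 927 CPM in saline replicates 1 and 2. The groups overlapped, since METH replicate 1 lay below saline replicate 2, and saline replicate 1 was lowest, as in OPC-like nuclei. The METH mean was 1059 ± 262 CPM and the saline mean 792 ± 192 CPM (SD, n = 2 each); the log2 fold change was 0.43 (SE 0.253; edgeR adjusted p = 0.999). This result turned on single libraries: it was 0.68 without METH replicate 1 (edgeR adjusted p = 0.005) and 0.72 without saline replicate 2 (edgeR adjusted p = 5.09e-05). Over all alternatives the log2 fold change ran from 0.13 to 0.72 and the edgeR adjusted p from 5.09e-05 to 1.

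The share of astrocyte-like nuclei with a Mertk UMI was 63.8% and 81.3% in METH replicates 1 and 2 and 43.5% and 69.8% in saline replicates 1 and 2, and 53.8%, 66.5%, 46.2% and 54.8% after thinning to 1000 UMIs. METH replicate 2 was highest in both, and the other METH library lay between the saline ones. Within the astrocyte-like nuclei without UMIs of other glial markers the levels were 869.5 and 1243 CPM in METH against 672 and 926 CPM in saline, almost those of all astrocyte-like nuclei. Whether the change of Mertk differed between OPC-like and astrocyte-like nuclei was not tested.

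In microglia-like nuclei, where Mertk was highest, it was 1844 and 1803 CPM in METH against 1491 and 1977 CPM in saline. The METH libraries lay between the saline libraries, and the log2 fold change was 0.05 (SE 0.134; edgeR adjusted p = 1). Only 153 microglia-like nuclei stood behind the low value of saline replicate 1. Endothelial-like nuclei gave 172 and 179 CPM in METH against 176 and 165 CPM in saline, where the groups overlapped.

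Leptomeningeal fibroblast-like nuclei gave 159 and 174 CPM in METH against 95.2 and 119.7 CPM in saline, from 8 to 28 UMIs per library. Both METH values were above both saline values, with a log2 fold change of 0.58 (SE 0.389; edgeR adjusted p = 0.971). With at least 1000 genes per nucleus the value was -0.02, so its sign was not kept. The summed astrocyte markers of these nuclei were 4179 and 4601 CPM in METH against 3475 and 4056 CPM in saline. The part of other cells in the Mertk values was not tested. In perivascular macrophage-like nuclei, too few for a test, Mertk was 668 and 814 CPM in METH against 681 and 369 CPM in saline, which overlapped.

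Axl, a receptor of Gas6 that is known to rise in inflammation, gave only 669 UMIs, of which 69.2% were in astrocyte-like nuclei. There it was 74.4 and 74.1 CPM in METH against 73.1 and 85.2 CPM in saline, with overlapping groups and a log2 fold change of -0.09 (SE 0.156; edgeR adjusted p = 0.999). Perivascular macrophage-like (82.9 ± 37 CPM), mural-like (43.2 ± 44 CPM) and leptomeningeal fibroblast-like nuclei (39.3 ± 21.6 CPM) rested on 12 to 25 UMIs in a class. The first and second overlapped astrocyte-like nuclei (76.7 ± 5.7 CPM), and the third lay below them in every library. Microglia-like nuclei, the class richest in Mertk, had 5 Axl UMIs in all; METH replicate 1 had none, which allows up to 5.95 CPM (3 counts). Axl was 13.1 ± 11.4 CPM in endothelial-like, 9.63 ± 1.23 CPM in OPC-like and 5.89 ± 7.19 CPM in newly formed oligodendrocyte-like nuclei, and under 1 CPM by mean in oligodendrocyte-like and both neuronal classes. Beside OPC-like nuclei, astrocyte-like nuclei were the only class in which Axl passed the filter.

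Tyro3, the receptor known from neurons, had 83.8% of its 6630 UMIs in excitatory neuron-like nuclei, yet its level was highest in oligodendrocyte-like nuclei (101 ± 16.6 CPM). Mural-like (57.6 ± 22.2 CPM), excitatory neuron-like (55.8 ± 2.62 CPM) and newly formed oligodendrocyte-like nuclei (50.7 ± 12 CPM) overlapped one another. Astrocyte-like (26.2 ± 4.01 CPM), endothelial-like (25.7 ± 8.42 CPM), perivascular macrophage-like (21 ± 21.8 CPM), leptomeningeal fibroblast-like (20.1 ± 22 CPM) and microglia-like nuclei (17.2 ± 4.42 CPM) formed a lower, overlapping range. OPC-like nuclei stood at 14.3 ± 3.08 CPM and inhibitory neuron-like nuclei at 8.17 ± 0.85 CPM, so the neuronal classes did not overlap each other. Along the oligodendrocyte lineage Tyro3 thus stood higher in each later class, opposite to Mertk, and OPC-like libraries lay below all newly formed and mature libraries.

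Among excitatory neuron-like clusters Tyro3 was low in 2. In the cluster led by Klhl1 and Chst8 it was 38.8 and 27.9 CPM in METH against 31.2 and 33 CPM in saline. The cluster led by Htr4 and Trabd2b overlapped it, at 26.9 and 34.5 CPM in METH against 28.5 and 41 CPM in saline. In the cluster led by Il1rapl2 and Scube1 it was 62 and 72.9 CPM in METH against 56.4 and 67 CPM in saline, above every library of the former clusters.

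Between the groups Tyro3 moved little in excitatory neuron-like nuclei, which gave it the greatest depth, 1251 to 1506 UMIs per library. It was 57.1 and 54.4 CPM in METH against 53 and 58.8 CPM in saline, with a log2 fold change of 0.02 (SE 0.0762; edgeR adjusted p = 0.999). The METH libraries lay within the range of the saline libraries. In oligodendrocyte-like nuclei it was 105 and 76.8 CPM in METH against 111 and 113 CPM in saline. Both METH values were below both saline values, METH replicate 2 by the most (log2 fold change -0.28, SE 0.178; edgeR adjusted p = 0.999). Astrocyte-like (-0.29, SE 0.249) and inhibitory neuron-like nuclei (-0.18, SE 0.274) did not pass the test either.

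Gas6, the ligand of all of the receptors, had 7137 UMIs, of which 67.6% lay in excitatory and 15.2% in inhibitory neuron-like nuclei. By level it was highest in perivascular macrophage-like nuclei (225 ± 50.8 CPM, from 38 UMIs). Endothelial-like (116 ± 39.2 CPM), microglia-like (104 ± 24 CPM), OPC-like (87.8 ± 2.45 CPM) and inhibitory neuron-like nuclei (71.8 ± 9.85 CPM) followed, each overlapping the next but for OPC-like nuclei, whose lowest library (85 CPM) stood just above the highest of inhibitory neuron-like nuclei (84.7 CPM). Excitatory neuron-like (48.3 ± 2.85 CPM), leptomeningeal fibroblast-like (47.4 ± 27.1 CPM), mural-like (40.5 ± 2.16 CPM) and newly formed oligodendrocyte-like nuclei (29 ± 15.1 CPM) came next. Astrocyte-like (20.3 ± 3.64 CPM) and oligodendrocyte-like nuclei (18.5 ± 9.46 CPM) were lowest and overlapped.

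Among inhibitory neuron-like clusters Gas6 was highest in the cluster led by Btbd11 and Erbb4, at 85.2 and 85.3 CPM in METH against 103 and 108 CPM in saline. The cluster led by Pde11a and Sv2c held 35 and 45.6 CPM in METH against 73.8 and 49.8 CPM in saline, all below every library of the former. Among excitatory neuron-like clusters the Klhl1 and Chst8 cluster, low in Tyro3, was high in Gas6, at 73.4 and 67.3 CPM in METH against 79 and 89 CPM in saline. The Il1rapl2 and Scube1 cluster, high in Tyro3, overlapped it, at 66.8 and 64.5 CPM in METH against 68.2 and 73 CPM in saline. So did the Htr4 and Trabd2b cluster, at 53.8 and 83.6 CPM in METH against 77.6 and 75.7 CPM in saline. The clusters led by Foxp2 and Syt6 (28.3 to 38.7 CPM) and by Glis3 and Otof (34.7 to 39.3 CPM) were low.

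In inhibitory neuron-like nuclei Gas6 was 67.3 and 61.7 CPM in METH against 84.7 and 73.4 CPM in saline, from 214 to 301 UMIs per library. Both METH libraries lay below both saline libraries, with a log2 fold change of -0.29 (SE 0.108; unadjusted p = 0.0153, adjusted p = 0.997 by edgeR). Over all alternatives the value ran from -0.39 to -0.18 and the edgeR adjusted p from 0.705 to 1. In excitatory neuron-like nuclei it was 45.9 and 46 CPM in METH against 51.5 and 50 CPM in saline, also with both METH values the lower, by a log2 fold change of -0.12 (SE 0.069; edgeR adjusted p = 0.999). Neither of these was a called change.

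In microglia-like nuclei the order of Gas6 was the other way, at 125 and 120.5 CPM in METH against 72.7 and 97.7 CPM in saline. METH exceeded saline in each pairing of the libraries, and the log2 fold change was 0.43 (SE 0.245; edgeR adjusted p = 1). The lowest value, that of saline replicate 1, rested on 10 UMIs. Endothelial-like (0.05, SE 0.479), astrocyte-like (-0.07, SE 0.295) and oligodendrocyte-like nuclei (-0.02, SE 0.468) gave log2 fold changes of Gas6 close to 0 with wide errors.

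Pros1, the ligand of Mertk and Tyro3, was highest in microglia-like nuclei (354 ± 34.5 CPM), which held 31.1% of its 2033 UMIs. Perivascular macrophage-like (162 ± 105 CPM) and leptomeningeal fibroblast-like nuclei (130.3 ± 34.6 CPM) overlapped, and microglia-like nuclei lay above both. Astrocyte-like nuclei held 72.6 ± 9.39 CPM, endothelial-like 54.5 ± 14.4 CPM and OPC-like 43.8 ± 3.13 CPM. Excitatory (2.2 ± 0.139 CPM) and inhibitory neuron-like nuclei (1.91 ± 0.578 CPM) were at the bottom and overlapped. Mural-like (30.6 ± 25.5 CPM), oligodendrocyte-like (16.4 ± 5.86 CPM) and newly formed oligodendrocyte-like nuclei (11.4 ± 14.4 CPM) lay between and overlapped one another. Microglia-like nuclei thus held the highest level of Pros1 and of Mertk alike, and the neurons were lowest for Pros1 and among the lowest for Mertk.

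Pros1 in microglia-like nuclei was 373 and 330.1 CPM in METH against 320.1 and 393 CPM in saline, from 44 to 201 UMIs per library. The METH libraries lay within the range of the saline ones, with a log2 fold change of -0.07 (SE 0.162; edgeR adjusted p = 1). Astrocyte-like nuclei gave 73.7 and 63.3 CPM in METH against 68.4 and 85.2 CPM in saline, again overlapping (-0.16, SE 0.17; edgeR adjusted p = 0.999). In excitatory neuron-like nuclei it was 2.28 and 2.35 CPM in METH against 2.09 and 2.07 CPM in saline, both METH values the higher, with a log2 fold change of 0.18 (SE 0.219; edgeR adjusted p = 0.999). Leptomeningeal fibroblast-like (0.07, SE 0.423) and oligodendrocyte-like nuclei (0.03, SE 0.437) were near 0 with wide errors.

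Over all nuclei kept, Mertk was 87.6 and 142 CPM in METH replicates 1 and 2 and 51.7 and 77.1 CPM in saline replicates 1 and 2. Pros1, a gene of the same classes, was 15.5 and 18.5 CPM in METH against 9.56 and 15.4 CPM in saline. The METH libraries were higher for both, though for Pros1 METH replicate 1 barely exceeded saline replicate 2. The makeup of the libraries differed as well. Microglia-like nuclei were 5.7% and 7.02% of nuclei in METH and 1.02% and 6.43% in saline, so the groups overlapped. Astrocyte-like nuclei were 11.3%, 13.5%, 8.38% and 8.89% in the same order, higher in both METH libraries. The part of this makeup in the sums was not tested. Gas6 (48.8 to 54.4 CPM) and Tyro3 (45.1 to 50.6 CPM), found mainly in neurons, varied less over all nuclei.

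The genes most like each member over the 36 sums of 9 classes and 4 libraries, by Pearson's r of log2(CPM + 1) among 11619 genes, are given as a description; sums of 1 class share cells of 1 type and those of 1 library share its depth. For Mertk they were Zfp36l2, which codes for a protein that destabilizes mRNA (r = 0.901), Lyn, a Src family kinase of immune cells (0.873), and Itgb1, the integrin beta 1 subunit (0.872). For Axl they included Oat, an enzyme of ornithine metabolism (0.826), and the glutamine transporter Slc38a3 (0.820).

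For Tyro3 the values were lower: Mdga1, a cell surface partner of neuroligins (0.791), Ccnyl1, a cyclin Y relative (0.777), and Jam3, a junction adhesion protein (0.776). For Gas6 they were the phosphatase Ppm1h (0.883), Lrrfip1 (0.853) and the polysialic acid enzyme St8sia4 (0.843). For Pros1 they were Cyp4v3, a fatty acid hydroxylase (0.936), the lysosomal protease Ctsh (0.934) and Rnf213, a large ubiquitin ligase (0.915). Each of these 3 was highest in microglia-like nuclei. Between the members themselves r was highest for Mertk and Pros1 (0.83), then Mertk and Axl (0.61), and lowest for Tyro3 and Gas6 (-0.60), over the same 36 sums.

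The wider pathway was described by 6 lists: signalling partners of the receptors, maturation of the ligands and shedding of the receptors, exposure of phosphatidylserine, other receptors and bridges for dying cells and synapses, engulfment machinery, and the nuclear receptors and lipid efflux genes that act after uptake. Over the 8 classes other than OPC-like, 357 pairs of a list gene and a class were tested, and none rose or fell at an adjusted p of 0.05 by edgeR. Of them, 22 had an unadjusted p under 0.05, and DESeq2 called 0. Positive log2 fold changes were 29 of 53 in astrocyte-like, 28 of 49 in microglia-like, 29 of 48 in oligodendrocyte-like, 11 of 27 in newly formed oligodendrocyte-like, 18 of 31 in endothelial-like and 14 of 26 in leptomeningeal fibroblast-like nuclei. They were 34 of 66 in excitatory and 25 of 57 in inhibitory neuron-like nuclei, and 45.6 to 50.2% of all genes tested were positive in these 8 classes. Leaving out a library gave 3 calls without METH replicate 1, 1 without METH replicate 2, 2 without saline replicate 1 and 8 without saline replicate 2. Those calls were C1qa and Ptpn11 in oligodendrocyte-like nuclei (without METH replicate 1, and again without saline replicate 2), C1qa in excitatory neuron-like nuclei (without METH replicate 1) and Dock5 in leptomeningeal fibroblast-like nuclei (without METH replicate 2, and again without saline replicate 2). Apoe was called in excitatory neuron-like and oligodendrocyte-like nuclei without saline replicate 1, and in endothelial-like and microglia-like nuclei without saline replicate 2. Itgav, Xkr4 and Atp8a2 were called in astrocyte-like nuclei without saline replicate 2. List genes were also called with all 4 libraries under 2 other settings. With the replicate number as a block these were C1qa in oligodendrocyte-like nuclei (log2 fold change 1.43; edgeR adjusted p = 0.0275) and Apoe in inhibitory neuron-like nuclei (0.41; edgeR adjusted p = 0.0303). With no filter on low counts they were C1qa in excitatory neuron-like (0.80; edgeR adjusted p = 0.0307) and oligodendrocyte-like nuclei (1.38; edgeR adjusted p = 0.0216) and Dock5 in leptomeningeal fibroblast-like nuclei (-1.92; edgeR adjusted p = 0.00862).

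The smallest p-values belonged to C1qa and C1qb, subunits of complement C1q, which tags synapses and debris for uptake. In excitatory neuron-like nuclei C1qa was 9.45 and 10.7 CPM in METH against 5.88 and 5.82 CPM in saline (log2 fold change 0.81, SE 0.138; edgeR adjusted p = 0.4). In oligodendrocyte-like nuclei it was 44.3 and 52.1 CPM in METH against 9.83 and 23.3 CPM in saline (1.36, SE 0.315; edgeR adjusted p = 0.476). Without METH replicate 1 the log2 fold changes were 0.89 (edgeR adjusted p = 0.0291) and 1.5 (edgeR adjusted p = 0.0303), and without saline replicate 2 that in oligodendrocyte-like nuclei was 2.34 (edgeR adjusted p = 0.00859). Each METH library was above each saline library in both classes. The order of C1qa was the same in microglia-like, inhibitory neuron-like and astrocyte-like nuclei. In microglia-like nuclei, where it was far higher, C1qa was 617 and 654 CPM in METH against 378 and 602 CPM in saline. In inhibitory neuron-like nuclei C1qa was 15 and 15 CPM in METH against 7.78 and 9.15 CPM in saline (0.81, SE 0.236; edgeR adjusted p = 0.997). C1qb there had a log2 fold change of 1.10 (SE 0.282; edgeR adjusted p = 0.997). In astrocyte-like nuclei C1qa was 37.5 and 40.7 CPM in METH against 25.9 and 22.1 CPM in saline (0.71, SE 0.228; edgeR adjusted p = 0.999). C1qa is also 1 of the 10 microglia markers. Their summed level in oligodendrocyte-like nuclei was 224 and 212 CPM in METH against 108 and 134 CPM in saline, with 8 of 10 higher by mean in METH and none at 0. In excitatory neuron-like nuclei it was 111 and 123 CPM in METH against 116 and 102 CPM in saline, with 8 of 10 higher and none at 0. The part of microglial RNA in these values was not tested.

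Apoe, the lipid carrier of glia, was 327 and 384 CPM in METH against 287 and 213 CPM in saline in oligodendrocyte-like nuclei (0.58, SE 0.152; edgeR adjusted p = 0.665), and 0.76 without saline replicate 1 (edgeR adjusted p = 0.00245). In astrocyte-like nuclei Itgav, the integrin alpha V that acts beside Mertk in uptake, was 190 and 211 CPM in METH against 130 and 174 CPM in saline (0.42, SE 0.143; edgeR adjusted p = 0.999), and 0.65 without saline replicate 2 (edgeR adjusted p = 0.0101). Also there, Ggcx, the vitamin K dependent carboxylase that activates Gas6 and Pros1, was 40.7 and 31.9 CPM in METH against 25.9 and 24.6 CPM in saline (0.51, SE 0.235; edgeR adjusted p = 0.999). In microglia-like nuclei Scarb1, a scavenger receptor, was 51.6 and 41.3 CPM in METH against 14.5 and 25.4 CPM in saline (1.00, SE 0.424; edgeR adjusted p = 1). With all 4 libraries, the low count filter and no block, all of these missed the threshold.

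In OPC-like nuclei the list genes are given without a test. Of 52 genes that passed the filter there, 29 had a positive log2 fold change, against 49.8% of all genes. Pik3r1, the regulatory subunit of the kinase PI3K that TAM receptors engage, was 480 and 456 CPM in METH against 341 and 434 CPM in saline (log2 fold change 0.25, SE 0.103). Pik3ca, of the same list, went the other way, at 54.2 and 53.4 CPM in METH against 76 and 66.5 CPM in saline (-0.38, SE 0.193). Of the tested genes of that list, 5 were positive and 5 negative. Rab7a, a regulator of late endosomes and of phagosome maturation, was 74.9 and 92.4 CPM in METH against 129 and 99.3 CPM in saline (-0.41, SE 0.165). For each of these genes the groups did not overlap, with Pik3r1 higher and Pik3ca and Rab7a lower in METH. They were picked as genes of smallest p in their lists for this same contrast, which favours such separation. It is therefore no result about the lists. Some genes picked in the same way overlapped, Tmem30a and Apoe among them. The groups did not overlap in 32.3% of all genes tested in OPC-like nuclei, which were not picked by p. C1qa stood at 31.1 and 35.4 CPM in METH against 20.1 and 19.4 CPM in saline (0.76, SE 0.293), and it is also one of the 10 microglia markers above.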

How the data were processed

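Per the labels' protocols, nuclear RNA of 4 libraries was captured with 10x Genomics 3' v3.1 chemistry and read on a NovaSeq6000. What was deposited are raw UMI counts per gene and barcode, made by the authors with Cell Ranger 7.0.0, per the submitters' processing notes, which name hg38 although all 25399 identifiers are rat; the rat build, and whether reads of overlapping genes were split, are not given in the labels.

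Barcodes with under 500 genes or over 5% mitochondrial UMIs were left out, and those with the highest Scrublet scores were removed as doublets at 0.8% per 1000 barcodes (764 and 587 in the METH libraries, 2420 and 534 in the saline libraries). Counts were scaled to 10000 per nucleus; 3000 variable genes (Mertk, Axl and Pros1 among them), 30 principal components, 20 neighbours and Leiden clustering at resolution 1 (Scanpy 1.11.5, igraph 0.11.9) gave 25 clusters. Clusters were named from marker lists. A name required a score of 0.4 or more, no unrelated list scoring above 0.6 of that, 3 or more markers seen in 10% of nuclei, and, among the 10 leading genes, not more markers of other classes than of that class. A list of T cell markers was dropped from the scores after the data were seen, but its genes still counted in the rule on leading genes. With at least 1000 genes per nucleus, a cluster of 1931 nuclei that scored as excitatory neuron thus stayed unnamed, with Skap1 of that list among its leading genes. In the main clustering, clusters that met no name (2653 nuclei) stayed out of the tests.

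Counts were summed per class and library and tested with the edgeR 4.0.16 quasi-likelihood F test (robust, TMM, filterByExpr, two-sided, Benjamini-Hochberg, R 4.3.3). The SE is the log2 fold change over the square root of F. Alternatives, DESeq2 1.42.0 among them, are in the closing section. The scripts were tested on simulated data. Thinning drew 1000 UMIs per nucleus with a fixed seed. Shares carry 95% Clopper-Pearson intervals. The members, lists, rules and tests were chosen with earlier results of these data known. The 5 members were named always, list genes if called and otherwise at most the 2 of smallest p in a list and class, and for each member the 3 genes of highest r with at least 10 CPM in some class, of which 1 is not reported here. Of the list genes, Itgb5, Adgrb1, Timd4, Cd36, Elmo2 and Dock2 had no row and were not analysed here. Sequences are from RefSeq.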

Additional observations from a re-analysis of the deposited data

Results flagged for a closer look

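One unnamed cluster of 554 nuclei lay outside the comparisons because the markers of microglia (score 1.96) and of an unrelated cell type (score 1.77) were both high. Which list gave the second score was not recorded. In it Mertk was 999 and 1132 CPM in METH replicates 1 and 2 and 617 and 961 CPM in saline replicates 1 and 2, and both METH libraries were above both saline libraries. Gas6 was 85.8 and 60.5 CPM in METH against 58.2 and 23.9 CPM in saline, from 4 to 29 UMIs per library, in the same order. Mertk and Gas6 were flagged in this cluster by that order itself, so it is not a separate result. The other 3 genes overlapped between the groups there: Pros1 was 185 and 235 CPM in METH against 116 and 197 CPM in saline, and Axl and Tyro3 rested on 1 to 17 UMIs per library. How many genes of all kinds separated in this way in the cluster was not computed. The share of UMIs from microglia and from other cell types in this cluster was not tested.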

How the results depend on the processing

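Mertk in OPC-like nuclei had log2 fold changes of 0.57 to 1.20 under the 14 alternatives, and 0.84 with the replicate number as a block. All were positive, but Mertk was chosen by this rise, so the sign is no support. Its difference in the share of nuclei with a UMI ran from 5.04 to 17.3 percentage points when a library was left out (11.2 with all). The number of genes called over 9 classes was 10; it was 16 at Leiden resolution 2, 58 with no filter on low counts, 77 with the replicate block and 77 to 447 when a library was left out. The number of called pairs of a member and a class outside OPC-like nuclei was 0 under each setting but 2, with 0 to 1 when a library was left out; both were Mertk in astrocyte-like nuclei. The replicate block changed no call of a member. Whether the replicate numbers pair the libraries was not settled. The correlation of deviations ran from -0.07 to 0.14, but with 2 libraries per group it cannot decide this. Of 341 other member values under alternatives, 42 had the other sign; 1 of these had exceeded its SE, Mertk in leptomeningeal fibroblast-like nuclei at 1000 genes per nucleus (-0.02). A sign counted as reversed only in that case. With 2 libraries per group, 1 of them shallow, and few UMIs of Axl and Pros1 per class, small changes could not be seen.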
